A study of Rattus norvegicus with 15 samples.

Results

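The genes described here encode the transition proteins and protamines. Apart from the product of Prm3, which is rich in acidic residues, these are small basic proteins that take the place of histones in sperm chromatin. They were chosen by name as Tnp1, Tnp2, Prm1, Prm2 and Prm3, and every probe set that the platform annotation gives to 1 of these genes alone was used. Each of the 5 genes had 1 such probe set, out of 14217 genes with at least 1 probe set of a single symbol. The arrays were Affymetrix 3' expression arrays, on which biotin-labelled cRNA is hybridised to sets of short oligonucleotide probes. There were 10 control and 5 irradiated arrays, all from rat testes (LBNF1, a hybrid laboratory strain) at 25 to 27 weeks of age. Control testes are labelled as taken before irradiation, and irradiated testes as taken after it, with a dose of 6 Gy to the lower abdomen. The treatment text is the same for every sample, and the sources used here do not state the interval between dose and collection. The samples are labelled biological replicates, and nothing states that they came from separate rats, so every p-value reflects only how these samples vary, which may be technical.

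After meiosis, round spermatids elongate and their nuclei are repacked. Histones are first loosened and acetylated, transition proteins then occupy the chromatin for a short time, and protamines finally compact the DNA through arginine-rich stretches and disulphide bonds. The genes are transcribed in round spermatids, and their mRNAs are stored with RNA-binding proteins and translated later, in elongating spermatids. In a whole testis these transcripts come from the haploid germ cells. In such bulk tissue, fewer cells of a type and less RNA per cell cannot be told apart.

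Prm1, Prm2, Prm3 and Tnp2 lie next to each other in that order on chromosome 10, and Tnp1 lies on chromosome 9. The 250 bases before the start of the gene were available from RefSeq (assembly GRCr8) for 4 of the 5 members, and 3 of these windows are printed because the genes moved together and the windows hold motifs that can be compared between them. They lie at chr9:82044279-82044528 on the minus strand for Tnp1, chr10:5378490-5378739 on the plus strand for Prm1 and chr10:5386485-5386734 on the plus strand for Tnp2. Each is written 5' to 3' and ends at the base before the start, with motif matches in capitals.
Tnp1: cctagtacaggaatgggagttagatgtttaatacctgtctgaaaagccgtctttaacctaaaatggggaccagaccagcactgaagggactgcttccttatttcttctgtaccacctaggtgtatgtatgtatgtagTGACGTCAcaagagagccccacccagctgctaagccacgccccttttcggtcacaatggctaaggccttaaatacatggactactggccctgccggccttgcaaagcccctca
Prm1: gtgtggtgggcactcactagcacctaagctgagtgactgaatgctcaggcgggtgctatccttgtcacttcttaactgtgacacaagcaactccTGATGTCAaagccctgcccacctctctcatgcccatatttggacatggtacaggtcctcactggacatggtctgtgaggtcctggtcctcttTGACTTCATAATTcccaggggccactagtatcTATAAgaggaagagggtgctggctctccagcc
Tnp2: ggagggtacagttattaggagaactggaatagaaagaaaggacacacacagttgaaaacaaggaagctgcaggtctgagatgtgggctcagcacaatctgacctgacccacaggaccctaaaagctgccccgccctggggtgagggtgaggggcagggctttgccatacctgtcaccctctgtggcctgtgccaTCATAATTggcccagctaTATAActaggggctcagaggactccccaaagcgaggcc
The motifs searched on both strands were TGACGTCA, the palindromic cyclic AMP response element, its looser form TGACNTCA, the A/T-rich word TCATAATT and the TATA-box core TATAA. They were chosen after the windows had been read. Tnp1 held TGACGTCA at 113 to 106 bases before the start, a word present in 1.59% of 33469 RefSeq windows of this length. Prm1 held the looser form at 2 places, as TGACTTCA at 64 to 57 bases before the start and, on the other strand, as TGATGTCA at 156 to 149. The looser form was present in 8.88% of all windows. The word TCATAATT stood at 59 to 52 bases in Prm1, where it overlapped TGACTTCA, and at 56 to 49 bases in Tnp2, and it occurred in 0.816% of all windows. A TATAA followed at 32 to 28 bases in Prm1 and at 38 to 34 bases in Tnp2, a word found in 24.0% of all windows. The Prm3 window, chr10:5384144-5384393 on the plus strand, held none of these letters. These matches describe the sequence alone.

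The deposited table gives 1 log2 signal per probe set and array, on a scale whose zero point is unknown, so levels were compared within a probe set and not between probe sets. A value below the median of its own array was treated as dim, with only a bound on its level, and such values have no order. For a gene that was dim on every irradiated array, the change is given as "at least N-fold lower", which sets the control mean against the mean of the irradiated arrays' medians. Those medians were -1.26, -1.34, -1.29, -1.38 and -1.28 in irradiated replicates 1 to 5. Arrays correlated at 0.906 to 0.940 among controls, at 0.941 to 0.957 among irradiated samples and at 0.645 to 0.687 between the groups.

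All 5 members were lower in irradiated testes past the threshold of 0.05 in limma's adjusted p. Among all 18711 probe sets tested, 34.3% were lower by the same rule, as 6426 lower and 9172 higher. The median change of all genes was 0.20, and it was -0.061 after quantile normalization, 0.046 after centring on array medians, 0.37 after centring on the spike-ins and -1.998 after each array was centred on the median of its Sertoli cell markers. That last scaling gave 15347 lower and 1439 higher probe sets. It lowers every change by the same amount, so any rise smaller than that amount turns to a fall by arithmetic. In all 5 members, all 5 irradiated arrays lay below all 10 control arrays, which was so for 24.2% of the probe sets tested.

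Tnp1 (1387473_at) encodes transition protein 1, a small lysine- and arginine-rich protein that appears as histones leave the condensing spermatid nucleus. Its log2 signal in control arrays was 5.18 at the lowest, 5.54 at the median and 6.04 at the highest. In irradiated replicates 1 to 5 it was -2.04, -3.45, -5.51, -6.28 and -6.50. Every irradiated value was dim and lay below the lowest control value, with no overlap. The control mean was 5.54 ± 0.28 (SD, n = 10) and the irradiated mean -4.76 ± 1.94 (SD, n = 5). Tnp1 was at least 116-fold lower in irradiated testes (limma adjusted p = 1.85e-11).

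Tnp2 (1370022_at) encodes transition protein 2, a zinc-binding protein that acts beside transition protein 1 in chromatin condensation. Control signals had a lowest value of 5.13, a median of 5.35 and a highest value of 5.70. The irradiated arrays gave -3.95, -5.79, -7.41, -4.75 and -7.12 in replicates 1 to 5. The groups were separate and all 5 irradiated values were dim. The mean fell from 5.38 ± 0.18 (SD, n = 10) to -5.80 ± 1.49 (SD, n = 5). Tnp2 was at least 103-fold lower (limma adjusted p = 1.98e-13).

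Prm1 (1394007_at) encodes protamine 1, the arginine-rich protein that packs sperm DNA in mammals. In control arrays its signal was between 5.78 and 6.49, with a median of 6.01. In irradiated replicates 1 to 5 it was 0.65, -0.91, -1.86, -4.74 and -4.14. Prm1 was the only member with irradiated values above an array median: replicate 1 stood 1.91 log2 units and replicate 2 0.43 log2 units above it, and replicates 3, 4 and 5 were dim. On these arrays alone, the signal was 43.2-fold below the control mean in replicate 1 and 127-fold below it in replicate 2. The group means were 6.08 ± 0.26 (control, SD, n = 10) and -2.20 ± 2.24 (irradiated, SD, n = 5). The fit on the values as deposited gave a limma adjusted p of 2.01e-09. With the 3 dim arrays set at their medians the change was at most -6.92, or at least 121-fold lower, and the limma fit on values floored in this way gave an adjusted p of 1.91e-15.

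Prm2 (1370039_at) encodes protamine 2, which is made as a longer precursor and trimmed on the DNA, and which many mammals use beside protamine 1. Control signals ran from 4.17 to 4.84 with a median of 4.48. The irradiated signals were -3.66, -3.86, -4.59, -4.34 and -3.97. These 5 values were all dim and all below every control array. The means were 4.49 ± 0.24 (SD, n = 10) and -4.08 ± 0.38 (SD, n = 5), and Prm2 was at least 55.9-fold lower (limma adjusted p = 2.57e-17).

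Prm3 (1371282_at) lies between Prm2 and Tnp2 in the cluster and encodes a protein that, unlike the other protamines, is rich in acidic residues. Control signals lay between 4.22 and 4.68 with a median of 4.38. The irradiated signals were -4.45, -4.42, -2.47, -4.48 and -3.85. All 5 irradiated values were dim and lay below every control value. The means were 4.43 ± 0.17 (SD, n = 10) and -3.93 ± 0.86 (SD, n = 5), and Prm3 was at least 53.5-fold lower (limma adjusted p = 1.33e-14).

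**Figure D1:**
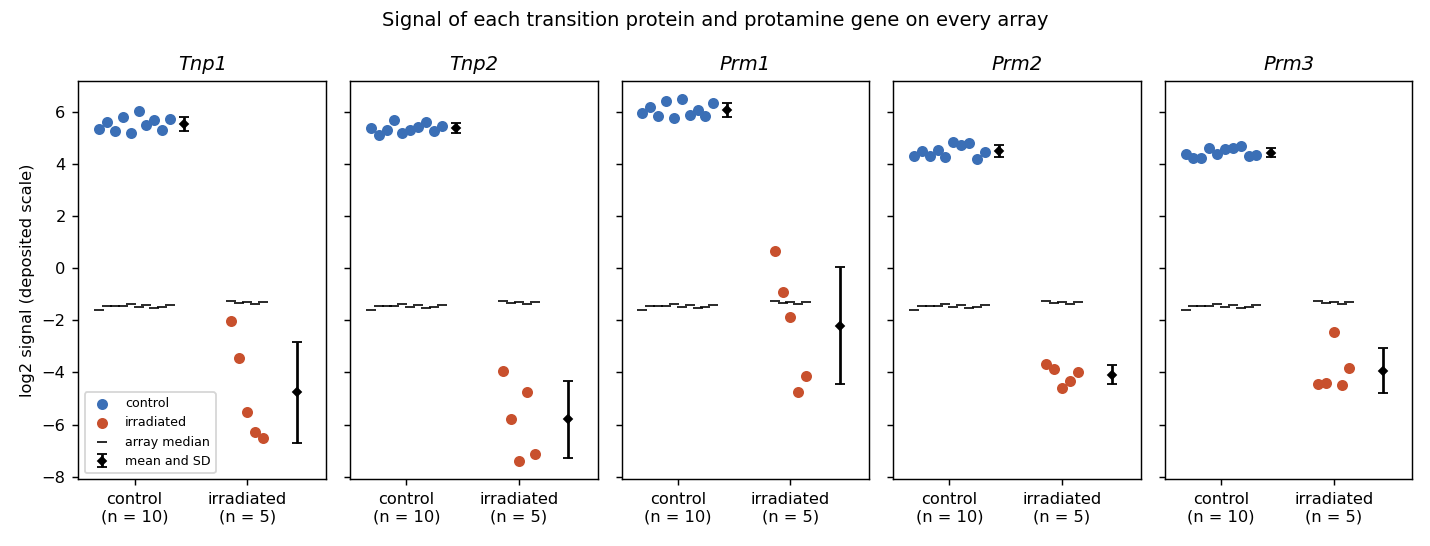
Log2 signal of Tnp1, Tnp2, Prm1, Prm2 and Prm3 on every array, as 10 control points and 5 irradiated points a gene, with a short black line at each array's median and a diamond with a bar for the group mean and SD. The control points of each gene lie within less than 1 log2 unit of each other, and all irradiated points lie below all control points. Of the irradiated points, 2 of Prm1 lie above the array median, and all the others lie below it.

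The spread of the deposited values in irradiated testes is given as a description, since most of these values are dim. The range over the 5 irradiated arrays was 5.39 log2 units for Prm1, 4.46 for Tnp1, 3.46 for Tnp2, 2.01 for Prm3 and 0.93 for Prm2. The control ranges over 10 arrays were 0.70, 0.86, 0.58, 0.46 and 0.67 in the same order of genes. Low signals vary more on this scale, so the spread was set beside that of other dim probe sets. Those were matched by the number of dim arrays and not by how low their signals were, so differences in level remain. Among the 13598 probe sets that were dim on all 5 irradiated arrays, the SD had a median of 0.479, with a 10th percentile of 0.193 and a 90th of 1.20. Tnp1 (1.94) and Tnp2 (1.49) lay above that 90th percentile, Prm3 (0.860) lay within the range and Prm2 (0.375) lay under the median. With values floored at the array median, the SD of each of these 4 genes was 0.0487, which is the spread of the array medians alone, so no difference in spread was measured among them above the floor. Among the 802 probe sets that were dim on 3 of the 5 arrays, as Prm1 was, the SD of deposited values had a median of 0.299. Its 90th percentile was 0.651, against 2.24 for Prm1. With values floored the SD of Prm1 was 0.853, which cannot be set against these percentiles because they were not floored. Without irradiated replicate 3 the SD of Prm3 was 0.302.

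The residual signal above the array medians belonged to Prm1 in irradiated replicates 1 and 2. In replicate 1 Prm1 exceeded the mean of the other 4 irradiated arrays by 3.56 log2 units, a size that rests on dim values in 3 of those 4. The excess was 3.20 to 3.57 under quantile normalization, median centring, Sertoli list centring and spike-in centring, 1.86 with values floored at the array median, 2.06 with a pseudocount of 0.25 and 1.08 with a pseudocount of 1. For Tnp1, Tnp2, Prm2 and Prm3, which were dim on all 5 arrays, the floored excess was 0.065, that of the array median itself. The same array was the highest of the irradiated arrays for 9 of 15 tested Sertoli cell markers, but for 1 of 10 Leydig cell markers, where replicate 4 was highest for 7. It was highest for 9 of 19 elongating spermatid markers, 2 of 6 round spermatid markers and 1 of 11 spermatocyte markers, and 11, 6 and 9 of these were dim on every irradiated array, where values have no order. Over all 4111 genes called lower, each other irradiated array was highest for 14.0% to 19.7% and replicate 1 for 32.1%. The spike-in mean of this array was 1.95, within the irradiated range of 1.49 to 2.69, and its actin 3' minus 5' difference was 1.06, within 0.90 to 1.16. With 1 array there is no replicate check on this pattern, and the part of array-wide differences in it was not tested.

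The 27 control probe sets for Bacillus genes, which have no rat target, gave a further reading of the floor and were chosen for this after the data had been seen. Their highest signal was -3.05, -2.42, -2.58, -3.14 and -2.57 on irradiated replicates 1 to 5. Prm1 exceeded it on replicates 1, 2 and 3, Tnp1 on replicate 1 and Prm3 on replicate 3. No member exceeded it on replicates 4 and 5, and Tnp2 and Prm2 did so on none of the 5 irradiated arrays. On all 10 control arrays, all 5 members were above it.

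**Figure D2:**
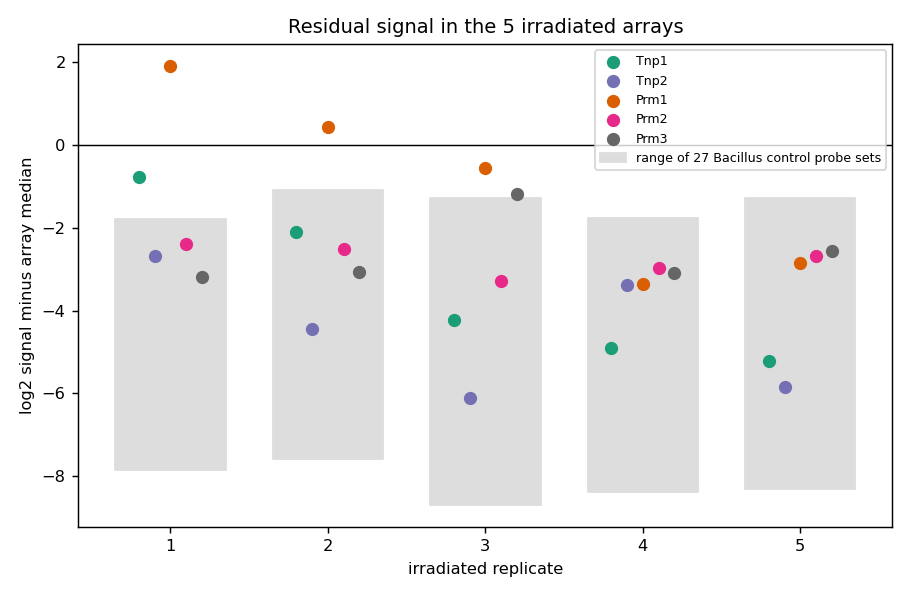
Log2 signal of the 5 genes minus the array median in each irradiated replicate, with grey bars for the range of the 27 Bacillus control probe sets on the same array. Prm1 lies above the array median at 1.91 in replicate 1 and 0.43 in replicate 2, and in replicates 4 and 5 all 5 genes lie inside the grey range.

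Among the 10 control arrays the members differed by less than 1 log2 unit, and some of them varied together. Of the 10 pairs of members, 4 were correlated past an adjusted p of 0.05 in 2-sided permutation tests. Prm1 and Tnp1 gave r = 0.944 (permutation p = 6e-05, adjusted p = 0.0006) and rho = 0.964 (permutation p = 5e-05, adjusted p = 0.0005), with r = 0.893 after the 2 arrays farthest from the median of Prm1 were left out. Prm2 and Tnp1 gave r = 0.771 (permutation p = 0.0114, adjusted p = 0.0416) and rho = 0.782 (permutation p = 0.0104, adjusted p = 0.0354). Prm3 and Tnp2 gave r = 0.728 (permutation p = 0.0166, adjusted p = 0.0416) and rho = 0.782 (permutation p = 0.0106, adjusted p = 0.0354). Prm2 and Prm3 gave r = 0.772 (permutation p = 0.0129, adjusted p = 0.0416), but rho = 0.60 did not pass (permutation p = 0.0739, adjusted p = 0.135). Without the 2 farthest arrays these 3 pairs had r = 0.631, 0.475 and 0.623, so they rested in part on those arrays. The 2 members of a pair were read from the same arrays and share each array's scale.

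Some members, but not all, also correlated with technical measures of the control arrays. Over the 10 correlations computed between members and such measures, the mean signal of 9 hybridisation spike-in probe sets correlated with Prm1 at r = 0.913 (permutation p = 0.00011, adjusted p = 0.0011) and rho = 0.867 (permutation p = 0.00233, adjusted p = 0.0233), and r was 0.80 without the 2 farthest arrays. It correlated with Tnp1 at r = 0.846 (permutation p = 0.00179, adjusted p = 0.00843) and rho = 0.806 (permutation p = 0.00694, adjusted p = 0.0347), and r was 0.614 without the 2 farthest. The actin 3' minus 5' difference, a measure of how far the labelled RNA reaches towards the 5' end, correlated with Prm2 at r = 0.832 (permutation p = 0.00253, adjusted p = 0.00843), but rho = 0.539 did not pass (permutation p = 0.114, adjusted p = 0.228), and r was 0.629 without the 2 farthest. None of the other correlations with these measures passed, and neither Prm3 nor Tnp2 passed with either measure. Control replicates 6, 7 and 8 stood apart in the actin difference, at 1.37 to 1.89 against 0.65 to 1.05 in the other 7. Prm2 was 4.74 to 4.84 in those 3 arrays and 4.17 to 4.54 in the others, with no overlap, and Prm3 was 4.58 to 4.68 against 4.22 to 4.62. Without the 3 arrays, 3 pairs passed over the remaining 7: Prm1 and Tnp1 (r = 0.990), Prm1 and Prm2 (r = 0.923) and Prm2 and Tnp1 (r = 0.888), while Prm2 and Prm3 were at r = 0.368 and Prm3 and Tnp2 at r = 0.845. The number of pairs also depended on the scaling: it was 0 of the 6 pairs that could be computed after quantile normalization, where Prm1 takes 1 value on all control arrays, 8 of 10 after centring on the Sertoli cell list and 10 of 10 after centring on the spike-ins. Each centring subtracts 1 value per array from all members alike, so the members of a pair then share that term. For the spike-ins its SD over the control arrays was 0.36, above the 0.17 to 0.28 of the members. The counts after centring are thus in part built in. Leaving out the 3 arrays moved the fitted change of the members by at most 0.13 log2 units, which was the shift of Prm2.

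**Figure D3:**
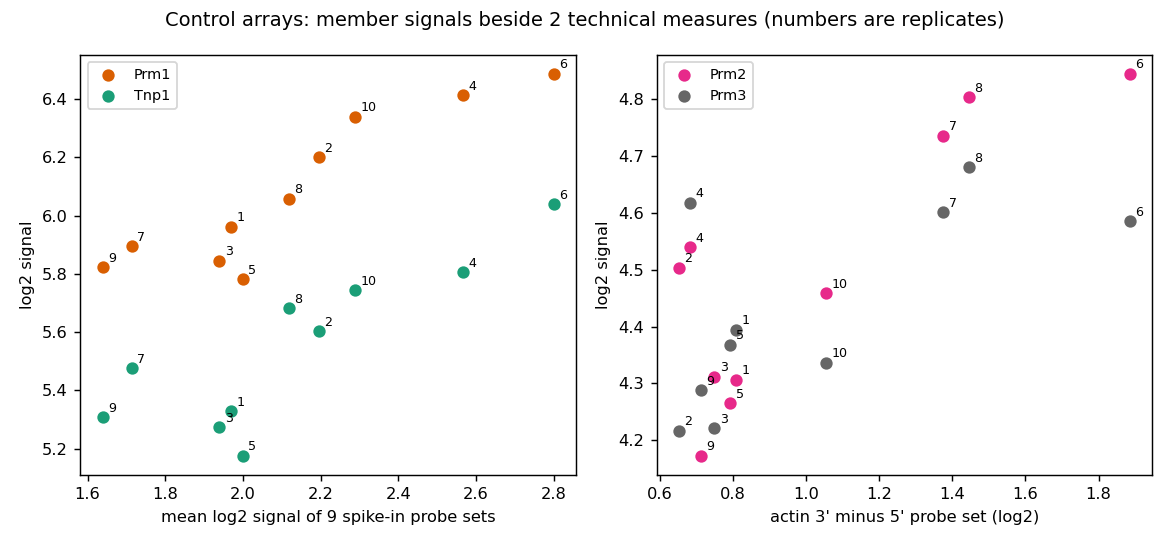
Log2 signal of Prm1 and Tnp1 against the mean of 9 spike-in probe sets (left) and of Prm2 and Prm3 against the actin 3' minus 5' difference (right) in the 10 control arrays, each point numbered by its replicate. Prm1 and Tnp1 are higher on arrays with higher spike-in signal, and replicates 6, 7 and 8 stand to the right for actin at 1.37 to 1.89, with the highest Prm2 signals.

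Genes that act on sperm chromatin around the exchange of histones formed a list of 33, of which 22 were on the array and 19 were tested. In irradiated testes 14 were lower, 4 were higher and 1 did not pass, against 37.9% lower and 47.6% higher among all 10841 genes tested. The median change was -1.77, and 0.20 over all genes. The 3 genes named first were picked by measured means that include dim values, and all 3 were dim on the 5 irradiated arrays, so their bounds give no order among the list's genes. H1f9, a linker histone of spermatids, was at least 66.6-fold lower (limma adjusted p = 2.27e-13), with a control mean of 4.75 ± 0.21 (SD, n = 10). Camk4, a calcium-dependent kinase reported to phosphorylate protamine 2, was at least 20.0-fold lower (limma adjusted p = 1.02e-15), from 3.01 ± 0.20 (SD, n = 10). Hspa2, a germ cell chaperone that binds transition proteins, was at least 55.6-fold lower (limma adjusted p = 7.74e-15), from 4.49 ± 0.36 (SD, n = 10).

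Values for 2 other members of the chromatin list are given for their role and were chosen after being seen. Nasp, a histone chaperone, fell by 4.42 ± 0.10 (SE), and Kdm3a, a histone demethylase that acts at the Tnp1 and Prm1 promoters, fell by 1.77 ± 0.16 (SE). The 4 genes that were higher are also expressed outside spermatids. Centring on the Sertoli cell list lowers every change alike, and all 4 were lower after it. With rises of this size that turn is arithmetic and tells nothing about these genes. Top2b, a topoisomerase, was higher by 1.79 ± 0.10 (SE) and at -0.42 after that centring, Cul4a, a ubiquitin ligase scaffold, by 1.55 ± 0.19 and at -0.65, and Pygo2, a chromatin reader, by 0.58 ± 0.12 and at -1.62. Epc1, a subunit of an acetyltransferase complex, was higher by 0.27 ± 0.08 (SE), at -1.93 after the Sertoli list centring and at -0.058 after quantile normalization. Its other tested probe set was at -0.31 and did not pass. Rnf8, a ubiquitin ligase, did not pass (change 0.18 ± 0.10 SE, limma adjusted p = 0.110). H1f6, H2bc1 and H2ac1, the testis forms of histones H1, H2B and H2A, were dim on too many arrays to be tested. For Psme4 and Cdyl another probe set passed in the opposite direction.

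Regulators of transcription and mRNA storage of these genes formed a list of 25, of which 14 were on the array and all 14 were tested. In irradiated testes 10 were lower and 4 higher, beside 37.9% lower and 47.6% higher among all genes, with a median change of -3.05. Ybx2, a Y-box protein that binds stored protamine mRNA, was at least 69.7-fold lower (limma adjusted p = 8.74e-19), from a control mean of 4.81 ± 0.14 (SD, n = 10). Ddx25, a helicase needed for the export and storage of spermatid mRNAs, was at least 28.5-fold lower (limma adjusted p = 8.74e-19), and Rfx2, a transcription factor of round spermatids, at least 21.2-fold lower (limma adjusted p = 9.19e-16). Crem encodes the factor that binds the cyclic AMP response element printed for Tnp1, and it was chosen for that after its values were seen. Its control signals had a median of 1.78, and its irradiated signals ran from -2.80 to -1.13 with 3 of 5 arrays dim, for a change of at most -3.07 (limma adjusted p = 4.68e-11). Its 3 other tested probe sets changed by -1.87 to -1.14.

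The 4 genes of the storage list that were higher were Celf1, Elavl1, Paip2b and Tarbp2. Celf1, an RNA-binding protein, was higher by 1.45 ± 0.16 (SE), but 2 of its 4 other tested probe sets passed in the opposite direction. Elavl1, another RNA-binding protein, was higher by 1.39 ± 0.22 (SE). Paip2b, a regulator of poly(A)-binding protein, was higher by 0.32 ± 0.10 (SE), and Tarbp2, which binds double-stranded RNA, by 0.24 ± 0.09 (SE). Centring on the Sertoli cell list lowers every change alike, and all 4 were lower after it. Celf1 was then at -0.75, Elavl1 at -0.81, Paip2b at -1.88 and Tarbp2 at -1.96. After quantile normalization Paip2b was at -0.050 and Tarbp2 at -0.14. Paip2, a relative of Paip2b, fell by 2.70 ± 0.10 (SE), with another of its probe sets passing in the opposite direction.

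Markers of spermatids and spermatocytes moved with the members. The counts below stand beside 37.9% lower and 47.6% higher among all genes tested. All 19 tested markers of elongating spermatids were lower, with a median change of -7.11, or -6.10 with dim genes at their bound, and 11 of them were dim on every irradiated array. The median level of that list was 4.61 to 5.12 in control arrays and -2.98 to -2.32 in irradiated arrays. All 6 tested round spermatid markers (median change -6.82, -4.22 at the bound) and all 11 tested spermatocyte markers (median change -4.44, -3.17 at the bound) were lower. Of 7 tested spermatogonial markers 3 were lower, 2 were higher and 2 did not pass. All 15 tested Sertoli cell markers and all 10 Leydig cell markers were higher, with median changes of 2.27 and 2.92. Of 10 macrophage markers 9 were higher and 1 was lower, with a median change of 3.02, or 1.98 with dim genes at their bound. On every control array 4 of these macrophage markers were dim. Of 3 tested blood markers 2 were higher and 1 was lower. After Sertoli list centring, 7 Leydig cell markers were higher and 2 lower (median 0.72), 5 macrophage markers were higher and 2 lower (median 0.82), and 0 blood markers were higher and 2 lower. Of 4 tested epididymal markers 3 were lower and none was higher. The part of these cell types' RNA shares in the members' fall was not tested.

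**Figure D4:**
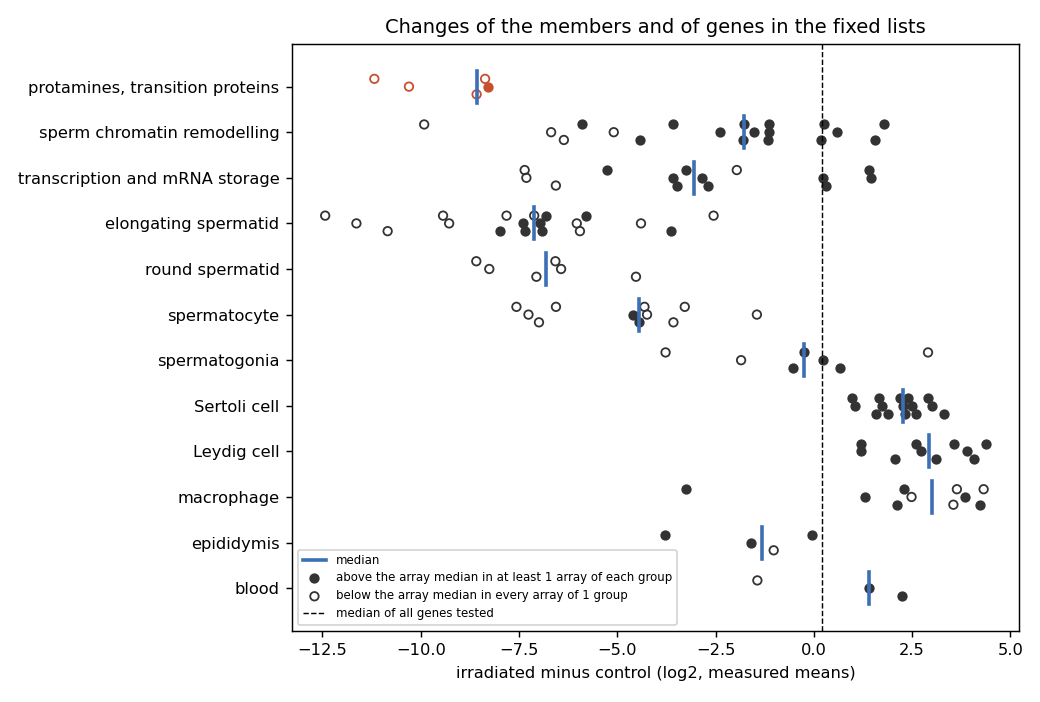
Change in log2 signal (irradiated minus control) of the 5 members and of each tested gene of the 11 gene lists, with open points for genes below the array median on every array of 1 group, a blue bar at each list's median and a dashed line at 0.20, the median of all genes tested. The members lie at the low end with the spermatid and spermatocyte lists, and the Sertoli and Leydig cell lists lie above 0.

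Most of the genes with a probe set that lie nearest to the members on the chromosome were higher in irradiated testes. Of 12 neighbours with a probe set, up to 3 on each side, 10 were tested, and 9 were higher and 1 was lower, beside 47.6% and 37.9% of all genes. On chromosome 10, Litaf, the nearest gene with a probe set before Prm1, was higher by 2.86 ± 0.11 (SE; limma adjusted p = 2.70e-13). Beyond it, Snn and Txndc11 were dim in all control arrays and at least 2.11-fold and 1.48-fold higher (limma adjusted p = 3.80e-05 and 6.60e-07). After Tnp2, Socs1, a cytokine signalling inhibitor, was dim in both groups and has no size. Clec16a was higher by 0.38 ± 0.09 (SE) and not in its other probe set (-0.013), and Dexi was at least 3.86-fold higher, with 8 of 10 control arrays dim.

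On chromosome 9, Igfbp5 and Igfbp2, which encode binding proteins of insulin-like growth factors, lie on 1 side of Tnp1 with the ribosomal protein gene Rpl37a. Igfbp2 was higher by 2.79 ± 0.14 (SE) and Rpl37a by 1.08 ± 0.18 (SE), and Igfbp5 was at least 5.43-fold higher, with 7 of 10 control arrays dim. On the other side, Tns1, a focal adhesion protein, was higher by 1.89 ± 0.22 (SE) in the probe set with the higher mean and at least 14.2-fold higher in the other, where 8 of 10 control arrays were dim, and Cxcr2 was dim in both groups. Pincl, the nearest gene with a probe set on that side, was the 1 neighbour called lower (limma adjusted p = 0.000437). It was dim on all irradiated arrays and on 3 of 10 control arrays, so no least size is given, and its groups overlapped. With values floored at the array median its change was -0.25 and the call was lost (limma adjusted p = 0.126). Under Sertoli list centring, which lowers every change alike, Clec16a was at -1.82, Dexi at -0.033, Rpl37a at -1.12 and Tns1 at -0.31. The direction of these 4 probe sets thus depends on the scaling, but the other Tns1 probe set stayed at 2.42. The calls of Snn (0.61, limma adjusted p = 0.242) and Txndc11 (0.63, limma adjusted p = 0.0727) were lost under that centring. Clec16a lost its call under quantile normalization (0.12, limma adjusted p = 0.161) and spike-in centring (0.54, limma adjusted p = 0.0539), and the direction of the 5 members did not change under any scaling tried.

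**Figure D5:**
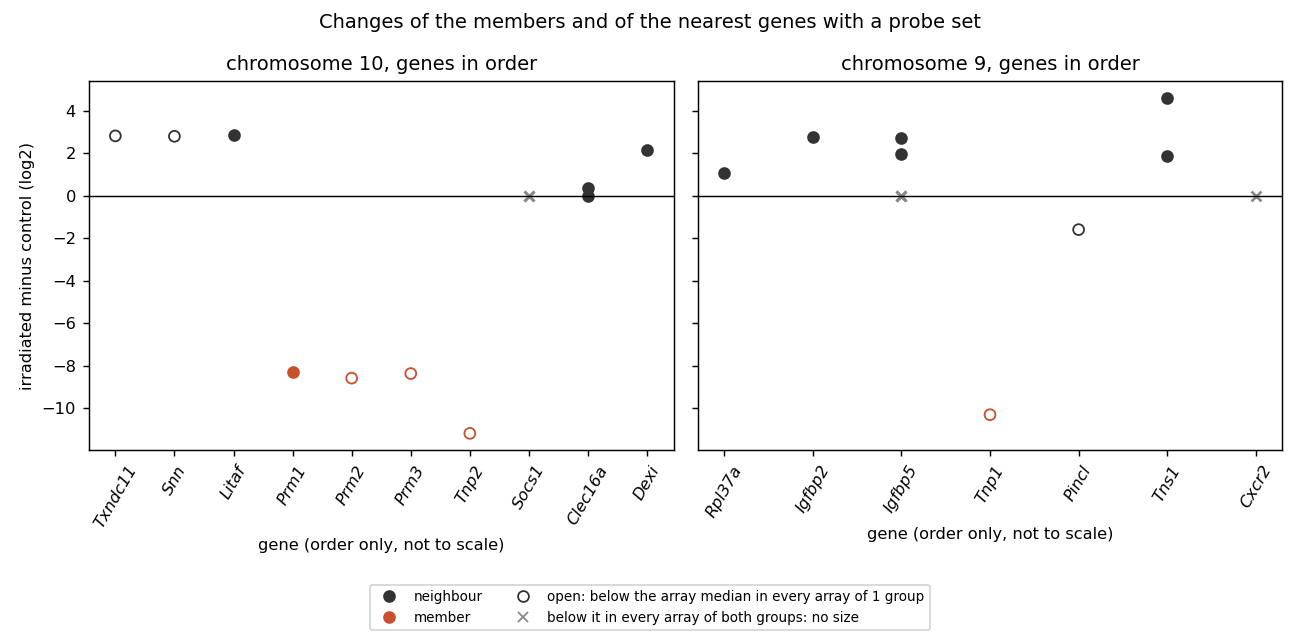
Change in log2 signal (irradiated minus control) of the members (red) and of their nearest genes with a probe set (black), in chromosomal order on chromosome 10 (left) and chromosome 9 (right), 1 point a probe set, open where it was below the array median on every array of 1 group. A grey cross at 0 marks a probe set that was dim in both groups and has no size. The members lie between -11.18 and -8.28, and Pincl, drawn at its measured change of -1.59, is the 1 neighbour below 0 with a call, which it loses with values floored.

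The genes with the profile most like each member were found by the root mean square difference over the 15 arrays, after each gene's control mean was subtracted, among 7863 genes at or above the array median in all control arrays. For Prm2 these were Cmtm2a (0.218 log2 units), LOC102547352 (0.226) and Spag16 (0.271), an axonemal protein. For Prm3 they were H2bl1 (0.361), a spermatid histone H2B variant, Chrne (0.477) and LOC102547352 (0.482). The closest to Tnp1 were C16h13orf46 (0.583), Klhl10 (0.660), a spermatid ubiquitin ligase adaptor, and Mlf1 (0.692). The closest to Tnp2 were Fabp9 (0.593), Akap4 (0.649), a scaffold of the sperm tail, and Fam229b (0.696). Prm1 had no gene as near, and its closest were Ropn1l (0.876), Prss37 (0.880) and Klhl10 (0.881). All of these genes were dim on all 5 irradiated arrays, so the differences within that group compare values that have no order.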

How the data were processed

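Log2 signals of 31099 probe sets on 10 control and 5 irradiated arrays were used as deposited; 0 array columns were left unused. Per the submitters' processing notes the authors used MAS5; scaling and zero point are not given in the sources used here. That the base is 2 was inferred from the spike-ins, which rose by 0.893 (control) and 0.928 (irradiated) units per doubling. Genes were named from the platform annotation of 2016, with positions and promoter sequences from RefSeq (GRCr8). Probe sets at or above their array's median in at least 5 of 15 arrays were tested (18711; 12331 were not, and the 57 AFFX controls were left out) by limma 3.58.1 (lmFit, then eBayes; 2-sided, no covariate; R 4.3.3) and Benjamini-Hochberg adjustment over all of them, at a threshold of 0.05. Errors of changes are limma's moderated SE. In the 11 gene lists, the probe set with the highest mean stood for a gene. Correlations used 100000 permutations in scipy 1.17.1.

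The members and lists were chosen with earlier results of these data known. Named were all members, the 3 genes of largest change in each direction of the chromatin and storage lists with those that did not pass, all neighbours and the 3 genes most like each member; others are marked where they occur. The fit was also run on simulated data, with normal noise of equal SD in both groups. The members had dim values and a wider spread in irradiated arrays, so that run does not test their p-values. Alternatives were other scalings, pseudocounts of 1 and 0.25, flooring, other filters, arrays left out, a replicate block, robust and weighted fits, and an exact permutation test. Precision is limited by the number of arrays, which have no read depth.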

Additional observations from a re-analysis of the deposited data

How the results depend on the processing

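The fall of each member kept its direction and passed the threshold in 31 of 31 alternatives, with changes between -13.38 and -4.39 and a largest adjusted p of 0.000532, in the exact permutation test. Leaving out 1 array at a time gave -8.99 to -7.65 for Prm1, -8.69 to -8.45 for Prm2, -8.73 to -8.23 for Prm3, -10.98 to -9.86 for Tnp1 and -11.64 to -10.78 for Tnp2. These sizes, and those of the block fit below, include dim irradiated values, on every irradiated array for all members but Prm1. Their narrow ranges are therefore not those of measured sizes. With the replicate number as a block over numbers 1 to 5, Prm1 changed by -8.24 (limma adjusted p = 4.46e-05), Prm2 by -8.47, Prm3 by -8.30, Tnp1 by -10.19 and Tnp2 by -11.14. The numbers are not known to pair samples: same-numbered arrays correlated at -0.05 to 0.07, and only number 5 matched its own best.

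The SD over irradiated arrays depends on how low values are treated, and it shrank by construction with a pseudocount of 1, a pseudocount of 0.25 and flooring at the array median. In that order it was 0.536, 1.09 and 0.853 for Prm1, 0.0205, 0.0703 and 0.0487 for Prm2, 0.0761, 0.235 and 0.0487 for Prm3, 0.128, 0.393 and 0.0487 for Tnp1, and 0.0344, 0.125 and 0.0487 for Tnp2. Leaving out 1 irradiated array gave SDs of 0.302 to 0.992 for Prm3.

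Higher genes of the chromatin list numbered 2 under quantile normalization and 0 under Sertoli list centring. Those of the storage list numbered 2 under quantile normalization, median centring, spike-in centring, controls 1 to 5 only and the replicate block, and 0 under Sertoli list centring. That centring gave 15347 lower and 1439 higher probe sets, and a filter at the 75th percentile, with fewer tested, gave 4082 and 5360. Of the neighbours, Clec16a was at -1.82, Dexi at -0.033, Rpl37a at -1.12 and Tns1 at -0.31 under Sertoli list centring. Correlated member pairs numbered 0 under quantile normalization, 8 under Sertoli list centring and 10 under spike-in centring, which was added after seeing the data. Sertoli list centring lowers every change alike, and each centring subtracts a value that all members share. Causes beyond this arithmetic were not tested.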
